A study of Mus musculus with 2 samples.

Results

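The replication-dependent histone genes were taken as the 67 genes with a symbol beginning with Hist1h, Hist2h, Hist3h or Hist4h among the 21938 protein-coding genes annotated in GENCODE M21. They comprised 6 genes for the linker histone H1, 18 for H2A, 18 for H2B, 12 for H3 and 13 for H4. The membership rule used the gene symbol alone and no measured value. Accessibility was measured by DNase-seq, in which DNase I cuts open chromatin and the cut ends are sequenced. The tissue was thymus, the organ in which T cells develop, from 2 female B6CASTF1/J mice aged 25 days. Both libraries, replicate 1 and replicate 2, formed 1 group of first-generation hybrids between C57BL/6J and CAST mice with no treatment named in the labels, so no condition was contrasted. The labels number the animals separately but give both samples the same donor identifier, read here as that of the strain; if it named 1 animal, the SDs below would be technical. Unless another set is named, the histone genes were set beside all protein-coding genes of the same library, the histone genes included. No test was made, because genes are not replicates of an animal.

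Replication-dependent histone genes supply the histones that package new DNA, and they are transcribed mainly in S phase. Most lack introns, their mRNAs end in a stem-loop in place of a poly(A) tail, and a protein that binds this stem-loop (Slbp) carries the mRNA through processing and translation. Many copies lie together in clusters, where the coactivator Npat gathers in nuclear bodies, and Hinfp binds an element close to the start of H4 genes. The thymus holds many dividing precursors of T cells, which need new histones. A bulk library cannot tell a larger share of open cells from more cutting per open cell.

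The 3′ stem-loop was the first check of the label. A stem of 6 perfect pairs beginning with GG and a loop of 4 bases beginning with T was sought within 200 bases after each annotated stop codon. It was found for 65 of the 67 histone genes and for 46 of the 21871 other genes, or 0.21% of these. It began a median of 31 bases after the stop codon, between 22 and 59. The genes without a match were Hist1h2an and Hist2h2be. Among other genes, H2afx, a variant histone of the DNA damage response, also had one. The 65 stem-loops had 8 sequences, and the forms with 8 or more genes are shown with the loop in capitals because they separate H4 from the other types.
Most common form, 41 genes of types other than H4: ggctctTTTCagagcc
Second form, 9 genes of types other than H4: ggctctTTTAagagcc
H4 form, 8 genes, all H4: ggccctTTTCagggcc
The first form was carried by 15 H2A, 13 H2B, 8 H3 and 5 H1 genes. No gene of these types carried the H4 form. In the cells of these libraries transcription was not measured, so the stem-loop describes the annotated genes only.

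At the start of H4 genes a short DNA word and footprints coincided. A footprint is a short stretch within open chromatin that is cut less than its surroundings, as called and deposited by the authors. The word GGTCCG, part of the H4 start element, was sought on both strands from 250 bases before to 50 bases after each gene start. It lay in 12 of 13 H4 genes, in 1 H2B gene and in 2 H3 genes, which made 22.4% of the histone genes against 9.6% of all protein-coding genes. Every sequence here is from RefSeq's GRCm38 (mm10), the sequence of C57BL/6J. Words and uniqueness on the CAST chromosomes of these hybrids were therefore not examined. The 12 places in H4 genes are printed on the strand of the gene, with 20 bases on each side and the word in capitals.
Hist1h4j: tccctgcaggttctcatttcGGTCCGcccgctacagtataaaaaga
Hist1h4k: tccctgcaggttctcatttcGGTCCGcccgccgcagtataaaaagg
Hist1h4m: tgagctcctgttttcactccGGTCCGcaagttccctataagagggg
Hist1h4n: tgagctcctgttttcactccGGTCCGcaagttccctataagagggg
Hist1h4i: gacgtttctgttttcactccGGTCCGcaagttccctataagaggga
Hist1h4h: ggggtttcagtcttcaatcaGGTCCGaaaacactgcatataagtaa
Hist1h4f: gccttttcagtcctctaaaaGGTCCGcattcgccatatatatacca
Hist1h4d: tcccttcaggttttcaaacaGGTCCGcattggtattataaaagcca
Hist1h4c: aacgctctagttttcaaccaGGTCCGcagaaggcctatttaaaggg
Hist1h4b: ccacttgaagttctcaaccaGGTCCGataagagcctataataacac
Hist2h4: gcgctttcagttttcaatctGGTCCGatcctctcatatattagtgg
Hist4h4: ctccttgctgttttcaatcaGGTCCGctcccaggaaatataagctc
All 12 words lay on the strand of the gene. They began between -80 and -11 bases from the annotated start, with a median of -49. Each of the 12 had its centre in a footprint in both libraries. The footprinted run around the word had a median width of 39.5 bases in replicate 1 and 33.5 bases in replicate 2. All 6 bases of the word were covered at 12 genes in replicate 1 and at 10 in replicate 2, where Hist1h4j and Hist4h4 had 5 bases covered. The same-strand word TATAAA followed 9 or 10 bases after GGTCCG in Hist1h4j, Hist1h4k and Hist1h4d, and 1 footprinted run covered both words at all 3 genes in replicate 1 and at Hist1h4k and Hist1h4d in replicate 2. Hist1h4m and Hist1h4n have the same 46 bases printed here and share 99.7% of their 1001-base windows, so they are not independent examples. Only 3.71% and 2.78% of the 31-base words in their windows occur once in the genome. Whether the placing of reads shaped their footprints was not tested. Hist1h4a is the H4 gene without the word, and no place within 500 bp of its start holds it. A match is a description of the letters and does not show which protein was bound.

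Start regions of the H4 and H1 genes with the densest peaks of their type are shown with the bases that lay in a footprint in both libraries in capitals. Each runs from 250 bases before to 50 bases from the start, on the strand of the gene. The H4 region is chr13:23698405-23698704 on the minus strand, and the H1 region is chr13:23738558-23738857 on the plus strand.
Hist1h4c: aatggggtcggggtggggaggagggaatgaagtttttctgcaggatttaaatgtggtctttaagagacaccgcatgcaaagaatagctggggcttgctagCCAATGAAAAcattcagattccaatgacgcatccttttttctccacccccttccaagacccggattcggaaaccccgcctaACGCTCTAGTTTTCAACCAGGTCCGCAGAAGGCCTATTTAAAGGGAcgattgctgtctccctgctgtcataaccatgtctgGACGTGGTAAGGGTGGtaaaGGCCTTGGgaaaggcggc
Hist1h1c: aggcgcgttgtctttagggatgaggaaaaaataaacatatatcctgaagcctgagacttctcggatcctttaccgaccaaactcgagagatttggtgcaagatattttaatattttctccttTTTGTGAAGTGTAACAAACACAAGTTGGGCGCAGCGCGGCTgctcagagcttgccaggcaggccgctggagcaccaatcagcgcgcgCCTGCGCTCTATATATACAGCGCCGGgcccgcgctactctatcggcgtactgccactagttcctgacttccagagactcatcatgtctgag
In Hist1h4c, 4 stretches with 80 bases in all were footprinted in both libraries, which is 26.7% of the region. The longest of these began upstream of GGTCCG, at position 201 counted from the 5′ end, and ran past it. A shorter stretch began on 1 of 2 CCAAT words of the region, at position 101. In Hist1h1c, 2 stretches covered 67 bases, or 22.3%. One of them held the H1 box AAACACA, at position 138, and the CCAAT word at position 196 lay outside both.

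Nearly all histone genes had an open start in this thymus. A peak of the longer deposited list lay within 500 bp of the start of 59 of 67 histone genes (88.1%) in replicate 1 and 60 (89.6%) in replicate 2, against 59.2% and 52.8% of all protein-coding genes. The mean was 59.5 ± 0.707 genes (SD, n = 2). The same 59 genes were open in both libraries and 7 were open in neither. Of all 21938 protein-coding genes, 11446 were open in both and 8821 in neither. All 13 H4 genes were open in both, as were 11 of 12 H3 genes, 15 of 18 H2A genes, 15 of 18 H2B genes and 5 of 6 H1 genes. By position, 28 of 31 genes of the distal chromosome 13 cluster, 19 of 23 of the proximal one, 9 of 10 on chromosome 3, both genes on chromosome 11 and Hist4h4 on chromosome 6 were open in both libraries.

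A footprint lay within 500 bp of 59 and 60 histone genes, against 57% and 51.6% of all genes. At least 1 base with a false discovery rate (FDR) below 0.05 for DNase I cutting lay within 500 bp of 59 and 60 histone genes, against 60.4% and 54.1% of all genes. The median histone gene had 8 footprints in replicate 1 and 6 in replicate 2, against 3 and 1 for all genes. Where only genes with a peak were counted, the medians were 8 and 6.5 for histone genes and 7 and 6 for all genes. Bases with an FDR below 0.05 numbered a median of 764 and 678 of 1001 at histone genes, against 445 and 199.5 at all genes. Among genes with a peak the order turned round, with 800 and 700 at histone genes and 874 and 713.5 at all genes. This order did not hold where the sequence was mostly unique, and the part of repeated sequence in it was not tested. The histone types also stand in other proportions there. Where at least 80% of the 31-base words of the window occur once in the genome, histone genes with a peak had 898 and 727 such bases. All genes with a peak and such windows had 881 and 718.

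**Figure D1:**
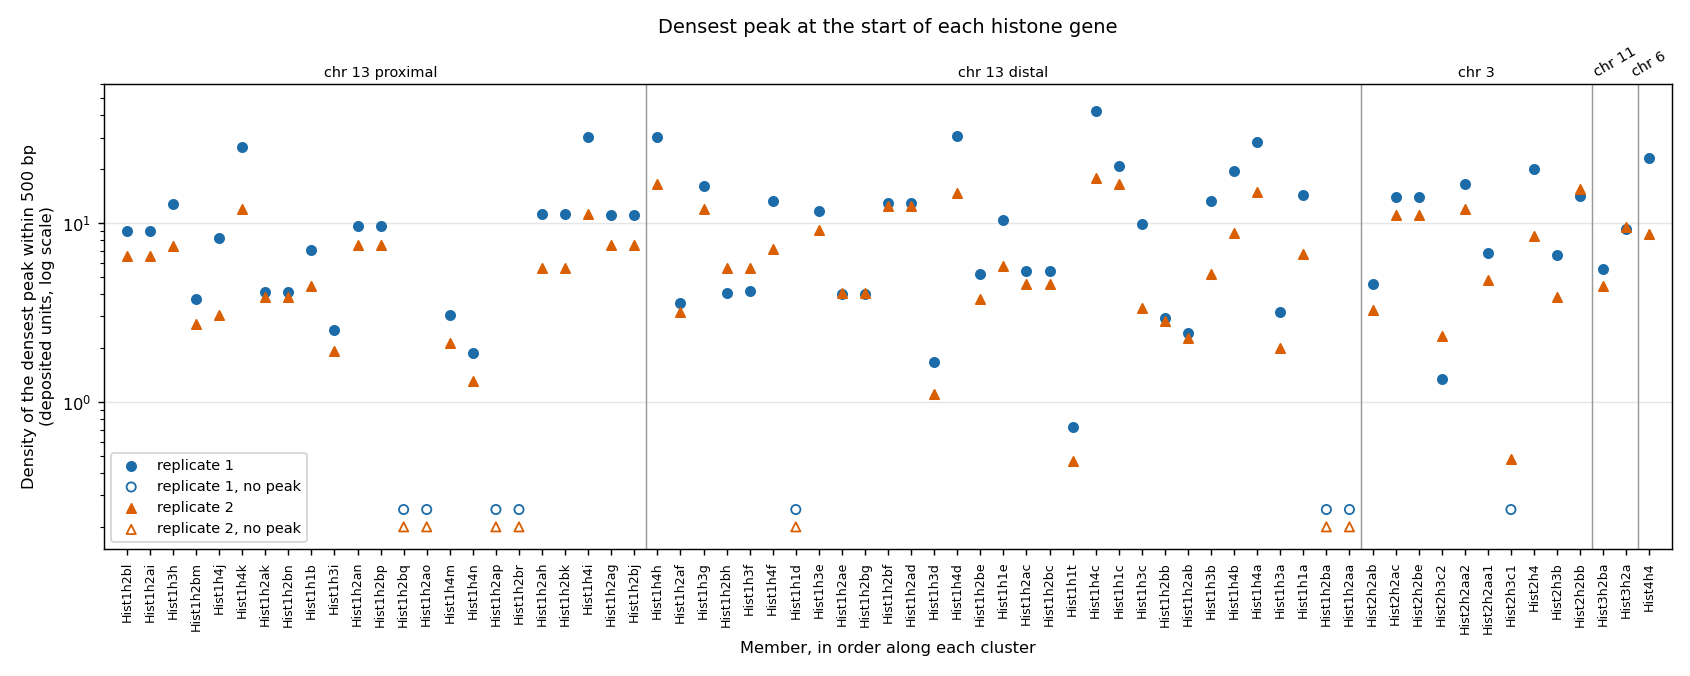
Density of the densest peak within 500 bp of each of the 67 histone gene starts (deposited units, log scale), in order along each cluster, with replicate 1 as circles and replicate 2 as triangles. Open symbols at the bottom mark genes with no peak, and H4 genes such as Hist1h4c (42.4 and 17.8) stand above most others.

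Taken over all types, the strength of the open starts was near the middle of the range of all open genes, with H4 genes above it in both libraries and H3 genes below it. The density of a peak is the authors' own value, and its scaling is not stated, so each gene's densest peak was also placed as a percentile among the densest peaks at all gene starts with a peak in the same library. On that scale the median over all such genes is 50 by construction. The median density over histone genes was 9.65 in replicate 1 and 5.63 in replicate 2, against 9.4 and 5.56 over all genes with a peak, which gave the histone genes median percentiles of 50.7 and 50.5. The range was wide, with percentiles from 12.7 to 98.3 in replicate 1 and from 4.91 to 88.2 in replicate 2. Densities of the 59 genes open in both libraries ranked alike, with a Spearman rho of 0.91, against 0.93 over 11446 genes of all kinds. These correlations run across genes, which share the libraries, and 24 of the 67 genes share a start region with another, so they are given without a test.

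H4 genes had the highest median of the 5 types. H4 is the core histone that pairs with H3 in the nucleosome. Its 13 genes had median percentiles of 82.7 in replicate 1 and 65.8 in replicate 2, and median densities of 23.1 and 8.78. Of the 10 histone genes at or above the 75th percentile in replicate 1, 9 were H4 genes, and in replicate 2 they were 5 of 11. Only 6 histone genes reached it in both libraries, and 5 of these were H4 genes. By construction 75% of all open genes lie below this percentile in each library. The 10 and 11 were out of 59 and 60 histone genes with a peak, a smaller share than over all open genes. How many of all genes reached it in both libraries was not computed. Hist1h4c, at chr13:23698454, was the densest, with a density of 42.4 in replicate 1 and 17.8 in replicate 2 and percentiles of 98.3 and 88.2. Hist1h4h followed with densities of 30.1 and 16.5, and Hist1h4d had 30.5 and 14.7. Hist1h4a, the gene without GGTCCG, had 28.5 and 14.8. Hist2h4, on chromosome 3, had 20 and 8.41 and reached the 75th percentile in replicate 1 only. Hist4h4, the single gene on chromosome 6, had 23.1 in replicate 1 at a peak centred at -45.5 bp and 8.66 in replicate 2 at another peak, centred at 564.5 bp.

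The H4 genes were not uniform. At the low end were Hist1h4m, with densities of 3.05 and 2.14, and Hist1h4n, with 1.88 and 1.3, whose mean percentiles were 26.8 ± 1.72 and 19.9 ± 3.06 (SD, n = 2). These genes are the near-identical copies of the proximal cluster, and only 3.71% and 2.78% of the 31-base words in their windows occur once in the genome. Hist1h4j had 8.26 in replicate 1 and 3.07 in replicate 2. The 5 H4 genes with at least 80% unique words had median percentiles of 82.7 and 65, both the values of Hist4h4. In replicate 2 that value is from its peak centred at 564.5 bp. The 5 are part of the 13, so the 2 sets of medians are not independent. Over all types, the histone genes with at least 80% unique words had median percentiles of 61.5 and 58.2, against 50.9 and 50.7 for all genes with at least 80%.

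**Figure D2:**
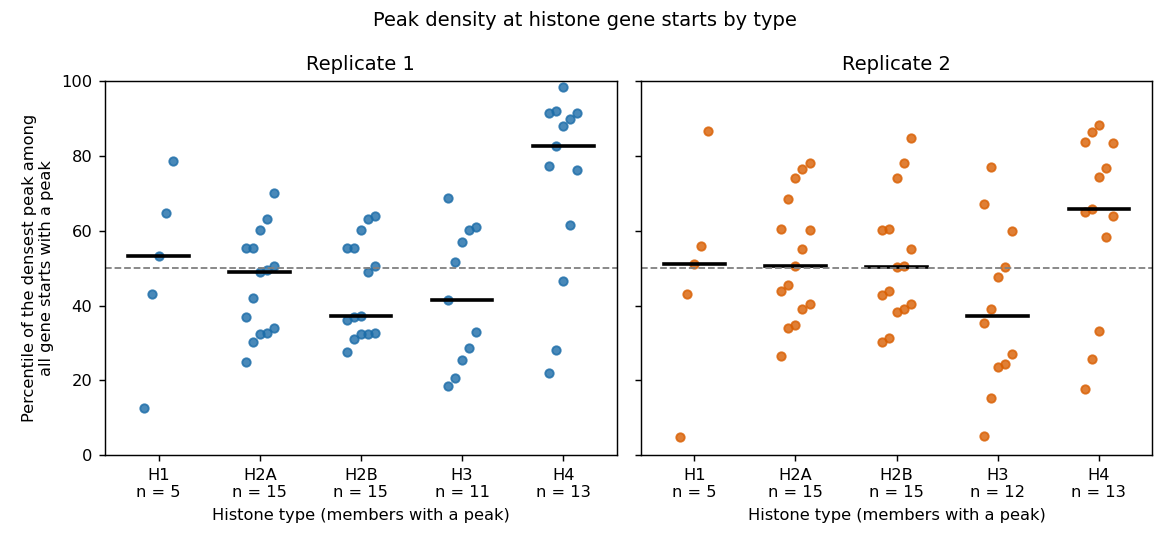
Percentile of each histone gene's densest peak among all gene starts with a peak, by histone type, in replicate 1 and replicate 2. Points are genes, black bars are medians, the dashed line at 50 is the median of all genes with a peak, and the H4 medians of 82.7 and 65.8 are the highest in both panels.

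H1 genes spanned a wide range. H1 is the linker histone, which binds where DNA enters and leaves the nucleosome. Hist1h1c had densities of 20.7 and 16.6 and percentiles of 78.5 and 86.6, so it was the 1 gene beside the H4 genes at or above the 75th percentile in both libraries. Hist1h1a had 14.4 and 6.66, Hist1h1e 10.4 and 5.76, and Hist1h1b 7.1 and 4.45. Hist1h1t, the testis form of H1, was the lowest of all histone genes with a peak in both libraries. Its densest peaks had densities of 0.725 and 0.468, at percentiles of 12.7 and 4.91, and the nearest peak edge lay 361 and 365 bp from the start. Hist1h1d had no peak within 500 bp, and its nearest peak was 882 bp away in replicate 1 and 1442 bp away in replicate 2. Its annotated gene start lies 1828 bp from its start codon, though, and within 500 bp of that codon the densest peaks were 15.4 and 12.

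H3, the core histone that pairs with H4, had genes with median percentiles of 41.4 in replicate 1, above H2B only, and 37.2 in replicate 2, the lowest of the 5 types. Hist1h3g led them with densities of 16.1 and 12, followed by Hist1h3e with 11.7 and 9.14. Hist1h3d, with 1.68 and 1.1, and Hist2h3c2, with 1.34 and 2.32, were lowest among those open in both. The densest peak of Hist2h3c2 was centred at -523.5 bp in replicate 1 and at -19.5 bp in replicate 2, so these are different peaks. Its near copy Hist2h3c1 had a peak of density 0.48 at a percentile of 5.19 in replicate 2 and none within 500 bp in replicate 1. The windows of these copies were 96.9% identical, and each had 3.19% unique words. Hist2h3b, the third H3 gene on chromosome 3, had 6.65 and 3.83.

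H2A and H2B, which form a dimer in the nucleosome, had genes with median percentiles of 49 and 50.5 for H2A, and of 37.3 and 50.2 for H2B. Outside chromosome 13, Hist2h2aa2 was the densest H2A gene, with 16.6 and 11.9, and its neighbouring copy Hist2h2aa1 had 6.8 and 4.82. Hist2h2ab had 4.54 and 3.26, and Hist3h2a on chromosome 11 had 9.29 and 9.47. Hist2h2bb was the densest H2B gene, with 14.1 and 15.4, and Hist3h2ba had 5.53 and 4.42. Hist1h2be, counted as open, also has a displaced start, 35168 bp from its start codon and within the Hist1h1e gene. Its densities were 5.17 and 3.75 at the annotated start and 5.11 and 4.75 within 500 bp of the start codon. At the low end were the H2A genes Hist1h2ab, with 2.42 and 2.27, and Hist1h2af, with 3.58 and 3.17, and the H2B genes Hist1h2bb, with 2.95 and 2.84, and Hist1h2bm, with 3.77 and 2.71.

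The place of a gene's peak within its library differed between the libraries by type. All 13 H4 genes had a lower percentile in replicate 2 than in replicate 1, with a median difference of -10.1 percentile points. Of the 15 open H2A genes, 14 had a higher percentile in replicate 2, as had 13 of the 15 open H2B genes, with a median difference of 6.5 points for each. H3 genes were higher in replicate 2 at 4 of 11, and H1 genes at 2 of 5. Those 4 H3 genes include Hist1h3f and Hist2h3c2, whose densest peaks in the 2 libraries are different peaks, as are those of Hist4h4. The densest peak of Hist1h3f in replicate 2 was also that of Hist1h2bh. Over all 11446 genes open in both libraries, 27.9% had a higher percentile in replicate 2, with a median difference of -5.58 points. The peak lists differ in length, with 127552 peaks in replicate 1 and 67270 in replicate 2, and the part of this in the shift was not tested. In the H2A and H2B counts, 9 start regions enter with both of their genes. With 1 library per animal, a difference between the animals cannot be told apart from one between the libraries.

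H2A and H2B genes were mostly arranged as divergent pairs. Of the histone genes, 24 formed 12 such pairs, each of an H2A with an H2B gene, with starts between 176 and 306 bp apart and a median distance of 259.5 bp. The 9 pairs with a peak shared their densest peak in both libraries, so the members of a pair have the same density. The densest pair by mean percentile was Hist1h2bf and Hist1h2ad, with 12.9 in replicate 1 and 12.5 in replicate 2, followed by Hist2h2ac and Hist2h2be with 13.9 and 11.1. The lowest were Hist1h2ae and Hist1h2bg, with 4.02 and 4.05, and Hist1h2ak and Hist1h2bn, with 4.12 and 3.86. The region between Hist1h2bf and Hist1h2ad with 50 bases past each start, chr13:23574146-23574431 on the plus strand, is shown because it holds both starts of a pair. It was chosen after the values were seen, and capitals mark bases in a footprint in both libraries.
Hist1h2bf and Hist1h2ad: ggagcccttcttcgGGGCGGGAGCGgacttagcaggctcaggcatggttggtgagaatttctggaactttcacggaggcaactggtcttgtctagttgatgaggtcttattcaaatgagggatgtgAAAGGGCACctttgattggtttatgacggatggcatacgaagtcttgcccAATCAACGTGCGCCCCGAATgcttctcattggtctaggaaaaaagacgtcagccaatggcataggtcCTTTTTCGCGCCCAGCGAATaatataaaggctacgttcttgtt
It has 4 CCAAT words on either strand, at positions 141, 175, 204 and 229. The capitals form 4 stretches with 60 bases, or 21% of the region.

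The genes with no peak in either library fell into 3 sets. The first was a double pair in the proximal cluster, Hist1h2bq with Hist1h2ao and Hist1h2ap with Hist1h2br. No 31-base word within 500 bp of these 4 starts occurs once in the genome, the stretches between the paired starts were 88.1% identical, and no base there had an FDR below 0.05. The second was Hist1h1d, whose start codon was open. The third was the pair Hist1h2ba and Hist1h2aa, the testis forms of H2B and H2A, for which 82.1% and 94.8% of the words were unique. No base near either start had an FDR below 0.05, and the nearest peak to Hist1h2ba was 8808 bp away in replicate 1 and 35636 bp away in replicate 2. All 3 testis forms (Hist1h1t, Hist1h2aa and Hist1h2ba) were thus without a peak or had a weak one, while their start regions held the words described below. The regions of Hist1h1t (chr13:23695564-23695863, plus strand) and Hist1h2ba (chr13:23934107-23934406, minus strand) are printed with these words in capitals, and that of Hist1h2ba was chosen after its values were seen.
Hist1h1t: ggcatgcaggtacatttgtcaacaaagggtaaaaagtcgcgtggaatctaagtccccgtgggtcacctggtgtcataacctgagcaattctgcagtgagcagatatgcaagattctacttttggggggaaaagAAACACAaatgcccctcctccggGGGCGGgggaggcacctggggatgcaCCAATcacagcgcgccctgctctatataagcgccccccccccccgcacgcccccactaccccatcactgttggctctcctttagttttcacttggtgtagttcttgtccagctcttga
Hist1h2ba: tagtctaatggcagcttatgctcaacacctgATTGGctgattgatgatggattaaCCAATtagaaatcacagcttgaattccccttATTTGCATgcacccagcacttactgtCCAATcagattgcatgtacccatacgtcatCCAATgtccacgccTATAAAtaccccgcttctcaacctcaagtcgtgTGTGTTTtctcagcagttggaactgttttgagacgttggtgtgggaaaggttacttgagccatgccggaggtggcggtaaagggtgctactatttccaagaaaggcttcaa
In Hist1h1t the capitals are AAACACA (H1 box), GGGCGG (GC box) and CCAAT, in that order. In Hist1h2ba they are 4 CCAAT words on either strand, the octamer ATTTGCAT at position 87, the TATA box at position 157 and an H1 box on the other strand at position 190.

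**Figure D3:**
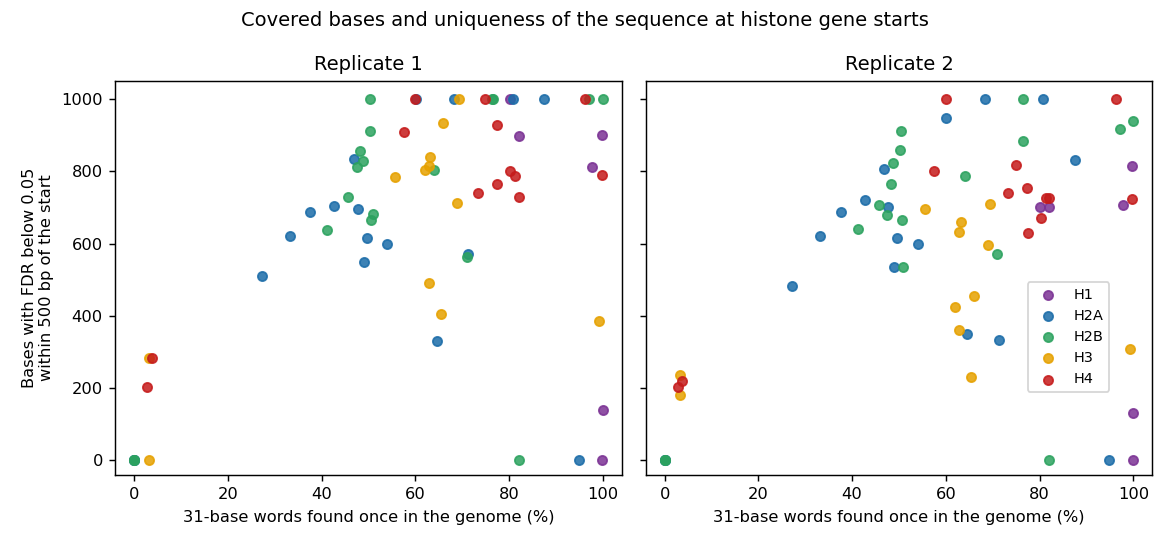
Bases with an FDR below 0.05 within 500 bp of each histone gene start, plotted against the percentage of 31-base words of the window that occur once in the genome, by histone type and library. The 4 genes at 0% have no such base, and Hist1h1d, Hist1h2aa and Hist1h2ba, at the right, have none either, nor has Hist2h3c1 in replicate 1.

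Copies of histone genes share much of their sequence. The median histone gene had 63.2% of its 31-base words once in the genome, against 100% for all genes, and 49 of 67 histone genes were under 80%, against 12.6% of all genes. Of the 8 histone genes under 5%, 3 were open in replicate 1 and 4 in replicate 2, against 2.38% in each library of all genes under 5%. All 41 histone genes between 5% and 80% were open in both libraries, as were 15 of the 18 with at least 80%. The share of all genes between 5% and 80% that were open was not computed, so the count of 41 cannot be called high or low. Of all genes with at least 80%, 65.4% were open in replicate 1 and 58.5% in replicate 2. The sources used here do not give how the authors treated reads that match several places, so a missing peak at a repeated sequence cannot be told apart from closed chromatin.

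Other words of histone promoters were also frequent in the 300-base start regions. CCAAT, the site of the factor NF-Y, lay in 56 of 67 histone genes (83.6%), against 39% of all genes. It was present in all 18 H2A and all 18 H2B genes, in 11 of 12 H3 and 5 of 6 H1 genes, but in 4 of 13 H4 genes. The H3 and H1 genes without it, Hist1h3f and Hist1h1d, have annotated starts 433 and 1828 bp from their start codons. Their windows therefore lie away from the coding sequence. At least 4 CCAAT words lay in 13 histone genes, against 1.15% of all genes. TATAAA, the TATA box, lay in 37 histone genes (55.2%), against 12.6% of all genes. The octamer ATTTGCAT, the site of Pou2f1 in H2B promoters, lay in 8 H2B and 7 H2A genes and in no other type, which made 22.4% of histone genes against 1.57% of all genes. AAACACA, the H1 box, lay in 4 of 6 H1 genes and in 13.4% of histone genes, against 6.4% of all genes. GGGCGG, the GC box, was about as frequent in histone genes (41.8%) as in all genes (43%), and 10 of 13 H4 genes had it. The E2F word TTTGGCGC was in no histone gene and in 0.693% of all genes, which says only that these letters are not in these windows. Paired genes share words where their windows overlap, and words that overlap each other were each counted. Histone start regions had a lower median GC content (45.3%, against 55% for all genes) and a higher ratio of observed to expected CpG (0.75, against 0.525).

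Footprints covered these words unequally. Each place in the genome was counted once, at genes with a peak. GGTCCG had its centre in a footprint at 13 of 15 places (86.7%) in replicate 1 and 14 of 15 (93.3%) in replicate 2, against 30.5% and 25.2% over all genes. The 12 places in H4 genes, described above, were all covered in both libraries, and the 3 outside H4 genes at 1 and 2. The values over all genes pool both strands and the whole start region. TATAAA was in a footprint at 18 of 30 places (60%) and 16 of 30 (53.3%), against 14.6% and 15.8% over all genes. The 23 TATAAA places outside H4 genes were covered at 13 and 11. CCAAT stood closer to all genes, at 32 of 100 places (32%) and 30 of 101 (29.7%), against 27.5% and 25.1%. None of the 7 CCAAT words of H1 genes was covered in either library, whereas in H2A genes 17 and 15 of 44 were. The octamer was covered at 1 and 2 of 9 places, and the H1 box at 1 of 9, that of Hist1h1c, in each library. The GC box was covered at 42.5% and 45.7% of places in histone genes, against 57.5% and 55.1% over all genes, and in H4 genes at 10 and 13 of 15. For scale, footprints took up 27.2% and 23.5% of all bases of the start regions of open histone genes, against 24.4% and 21.1% for all open genes.

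**Figure D4:**
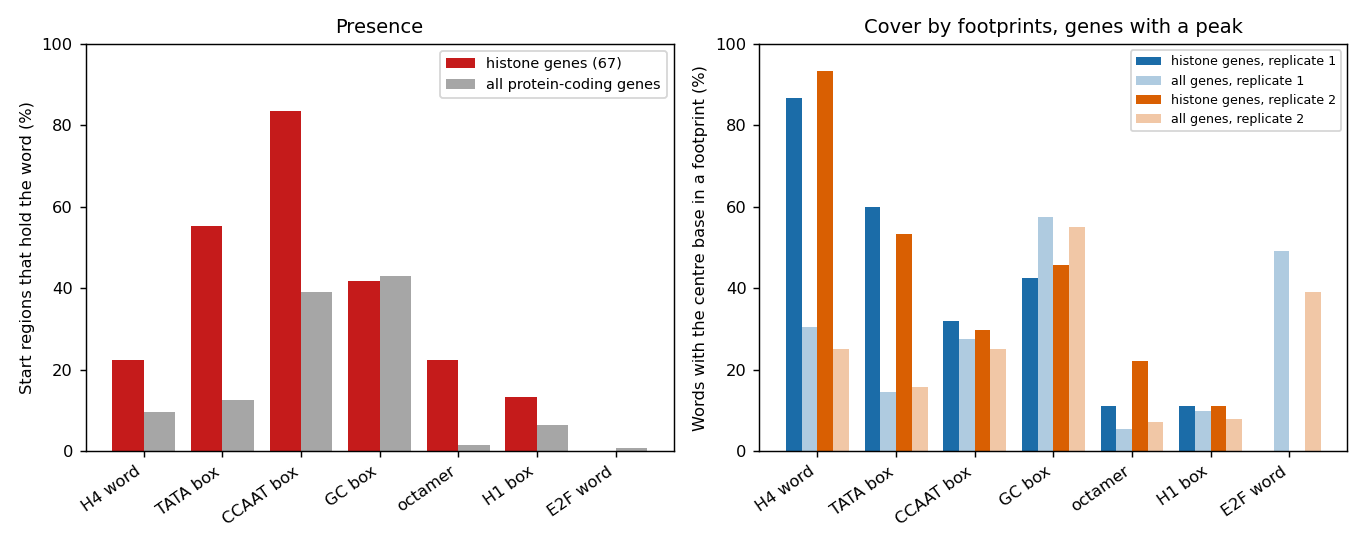
Left, percentage of start regions (250 bases before to 50 after the start) that hold each word, for the 67 histone genes and for all protein-coding genes. Right, percentage of these words with the centre base in a footprint at genes with a peak, for histone genes (dark) and all genes (light) in each library; the H4 word GGTCCG reaches 86.7% and 93.3% at histone genes, against 30.5% and 25.2% over all genes.

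Along the start region the footprints of each type had their own outline. At H4 genes, 76.2% of bases between -50 and -41 lay in a footprint in replicate 1 and 70% in replicate 2, against 33.3% and 31.3% at all genes. Between -120 and -111 the share at H4 genes was 12.3% and 8.46%, against 27.6% and 21.9% at all genes. Further upstream the libraries differed, and between -170 and -161 the share at H4 genes was 66.2% in replicate 1 and 24.6% in replicate 2. At the 5 open H1 genes the highest shares were just upstream of the start, with 70% and 68% between -40 and -31 and 64% and 76% between -30 and -21. At H2A, H2B and H3 genes no stretch of 10 bases had a share as high as these. Of the footprints near histone gene starts, 57% of 405 in replicate 1 and 72.4% of 348 in replicate 2 overlapped a footprint of the other library, against 58.6% and 81% near all genes.

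**Figure D5:**
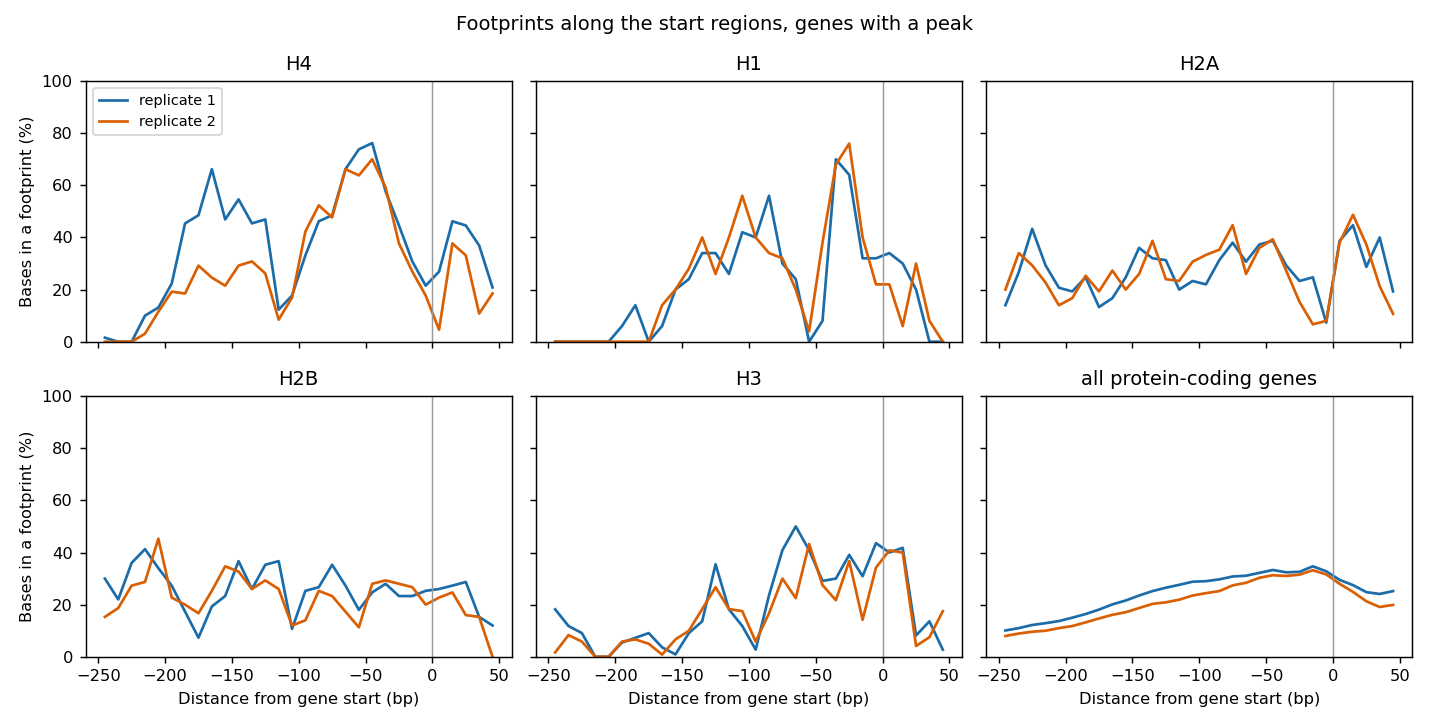
Percentage of bases in a footprint in steps of 10 bases from -250 to 49 relative to the gene start, for genes with a peak, by histone type and for all protein-coding genes. Lines are replicate 1 and replicate 2, and the H4 panel peaks near -45, at 76.2% and 70%.

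The densest peak of a histone gene had a median width of 200 bp in replicate 1 and 220 bp in replicate 2, the same as over all genes. Its centre lay farther upstream, at a median of -51.5 and -52 bp from the start, against -25.5 and -22.5 bp over all genes. The annotated start of 11 histone genes is the start codon itself, and open paired genes share 1 densest peak. The part of these in the difference was not tested. At 56 of the 59 genes open in both libraries the densest peaks of the 2 libraries overlapped, and the exceptions were Hist1h3f, Hist2h3c2 and Hist4h4. The share over all genes was not computed, so this count cannot be called high or low.

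In the clusters, peaks at histone starts were denser than peaks elsewhere. Dense peaks at starts were not particular to histone genes. The median over all peaks of the longer list was 0.825 in replicate 1 and 0.93 in replicate 2. The densest peaks at all open gene starts had medians of 9.4 and 5.56. The distal chromosome 13 cluster (chr13:23531050-23934851, 404 kb) held 82 peaks in replicate 1 and 49 in replicate 2, of which 38 and 30 were within 500 bp of a histone start. Their median density was 4.03 and 4.3, against 0.905 and 1.5 for the 43 and 18 peaks that were near no protein-coding start. The proximal cluster (chr13:21715763-22043676, 328 kb) held 89 and 52 peaks, of which 24 and 22 were at histone starts, with medians of 3.41 and 2.42 against 0.939 and 1.32 for the 62 and 28 elsewhere. On chromosome 3 (chr3:96219865-96270132, 50.3 kb), 14 of 26 and 15 of 19 peaks were at histone starts, with medians of 4.95 and 3.13 against 0.616 and 0.621 for the 12 and 4 elsewhere. Of the 10 other protein-coding genes that start within the clusters, 4 were open in replicate 1 and 3 in replicate 2. Hfe, a regulator of iron uptake, the zinc finger gene Zfp184, and Trim17 were open in both. Trim17 had the same densest peak values as Hist3h2a, 9.29 and 9.47. Pom121l2 had a peak of 0.571 in replicate 1 only. Trim38, Prss16 and the solute carrier genes Slc17a1, Slc17a2, Slc17a3 and Slc17a4 had none.

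Genes whose products serve the histone genes were counted in the same way, beside the 59.2% and 52.8% of all protein-coding genes that were open in replicates 1 and 2. Of 11 genes for the transcription of histone genes, 10 (90.9%) were open in replicate 1 and all 11 in replicate 2, with median percentiles of 82.2 and 77.2. Casp8ap2 (Flash), a component of the histone nuclear bodies, and Npat led them with mean percentiles of 96.8 ± 2 and 96.4 ± 2.32 (SD, n = 2). Coil, which encodes coilin of Cajal bodies, was open in replicate 2 only. Of 11 genes for the 3′ end processing and translation of histone mRNA, 10 (90.9%) and 9 (81.8%) were open, led by Lsm10 at 82.2 ± 5.9 and Sympk at 80.5 ± 1.37 (SD, n = 2), which encode subunits of the processing machinery. Cpsf3, the nuclease that cuts the histone pre-mRNA, had a peak in replicate 1 only, of density 0.46, and Zfp473 had none. All 16 histone chaperone genes were open in both libraries, led by Nap1l4 at 95.4 ± 0.477 and Ubn1 at 95.1 ± 1.49 (SD, n = 2). Of 14 variant histone genes outside the rule, 9 (64.3%) and 8 (57.1%) were open, shares near those of all genes, led by H2afv at 95.3 ± 3.13 and H2afx at 93.2 ± 3.97 (SD, n = 2). H2afy2 was open in replicate 1 only, and H3f3b, H2afy, Hils1, H1fnt and H1foo had no peak within 500 bp of the annotated start. As a check of the tissue label, all 10 T-lineage marker genes were open in both libraries, and of Alb, Ins2, Myh6 and Gfap only Gfap was open, in replicate 1, with a density of 1.85.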

How the data were processed

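DNase-seq files of 2 thymus libraries (n = 2, 1 group; replicate numbers from the labels) were used as deposited, in mm10 coordinates per the labels. The authors deposited 2 peak lists per library, with a signal density for each peak whose scaling is unstated, and the longer list was used. Runs of bases carry a deposited q-value (false discovery rate, FDR), and bases below 0.05 were counted. The deposited footprints were used as positions only. The aligner, the callers and the read depth were not given in the sources used here, so no interval on depth is given.

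Gene models came from GENCODE M21, and 13 mitochondrial genes were left out. A gene was open with a peak overlapping by at least 1 bp the 500 bp on either side of its start. Clusters were runs of histone genes with gaps of at most 500 kb, and pairs were opposite-strand starts within 500 bp. Words were matched exactly on both strands. Uniqueness counted 31-base words of the window on both strands of the genome. Medians and counts were set beside those of all protein-coding genes, and no p-value was computed. Names in the text are the 37 histone genes given by 1 rule: those without a peak, the 2 highest and 2 lowest of each type by mean percentile, the testis forms and those outside chromosome 13, with paired genes named together. Others named, such as Hist1h4d, Hist1h4a, Hist1h4j, Hist1h1e and Hist1h2be, were chosen after their values were seen. The members, lists and words were chosen with earlier results of these data known. Counting and word search were tested on simulated data. Python 3.11.15, numpy 2.4.6, pandas 2.3.3 and matplotlib 3.10.9 were used.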

Additional observations from a re-analysis of the deposited data

How the results depend on the processing

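With other peak lists, thresholds, windows, overlaps and gene starts, 57 to 60 histone genes were open in replicate 1 and 58 to 61 in replicate 2. With each start region counted once, 50 and 51 of 55 were open. Of 61 values under alternative settings, 48 stayed within 1.5 times the count or the spread between the libraries and 13 moved. The values with 1 library left out are among the 48. They could not move, because each of 2 libraries lies within that spread of their mean. Restricted to the 18 genes with at least 80% unique words, 15 were open and 15 had a footprint in each library, by construction fewer than 67, and the median density in replicate 1 was 13.3. The median number of footprints in replicate 1 was 6 within 250 bp and 11 within 1000 bp, and in replicate 2 it was 8 within 1000 bp. The median bases with a low FDR were 501 and 456 within 250 bp, 1006 and 797 within 1000 bp, and 668 at an FDR of at most 0.001 in replicate 1, as wider windows hold more bases. The start codon and the removal of genes with no unique word were added after seeing the data. Leaving out either library gave 59 to 60 open genes, a median density of 5.63 to 9.65, 6 to 8 footprints and 678 to 764 bases. No paired analysis was possible because the libraries form 1 group. Peak density has an unstated scaling and depth is not stated, so a missing peak may lie below detection.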
